A study of Homo sapiens with 4 samples.

Results

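The spliceosome core and SR protein genes were 56 genes of the array, chosen by symbol alone. A gene was taken when its symbol in the platform's annotation began with SNRP, LSM, PRPF or SRSF and a further letter or digit, or with SF3A or SF3B. Each had 1 probe set, of 21448 on the array. The names fit the label for 53 of the 56 genes. LSMEM1 and LSMEM2, which encode membrane proteins, and the pseudogene SNRPD2P2 matched only by their first letters and are given apart. SNRPN, LSM2, PRPF8, PRPF4B and SRSF2 were not analysed here.

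ORM (one-round migration) Jurkat cells gave 2 arrays and had passed 3 μm pores within 24 h into a lower chamber. Control Jurkat cells, which had not migrated, gave the other 2 arrays. Jurkat cells derive from a human T-cell acute lymphoblastic leukemia, are an established line, and were maintained in RPMI with fetal bovine serum. The paper's supplement describes Transwell assays in which only the lower chamber held serum. Serum exposure over the 24 h may thus have differed between the groups, and it cannot be told apart from migration. ORM cells were those that crossed, so cells selected by the pores and cells altered by them cannot be told apart. Each RNA was read on 1 human Clariom S array, and the values are the authors' log2 signals. The labels call the arrays of a group biological replicates. Their free-text description goes against the titles. There, ORM replicate 1 is called control, ORM replicate 2 a short 3D culture, and both control arrays a suspension culture that followed 3D confinement. Groups were therefore taken from the titles, with which the source names accord. The series design calls the control cells non-migrated, and the sample labels call them a normal suspension culture.

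Of 11 measured T-cell markers, 10 lay above the median signal of all 4 arrays, among them CD3D, CD3E, CD3G and LCK, and CD2 did not. Of 5 B-cell markers 4 lay above it, CD79A and PAX5 included, and none of 7 myeloid markers did. Of 6 epithelium and fibroblast markers 3 did, COL1A1, COL1A2 and KRT8, while CDH1 and EPCAM lay below the lower quartile on every array. The summed log2 signal of the T-cell markers was 104.07 to 104.61 in ORM arrays and 104.29 to 104.46 in control arrays. Such a sum hides opposite shifts, as in CD3D and CD247, with log2 fold changes (ORM minus control) of 0.515 and -0.515. Of the 11, 4 had both ORM arrays above both control arrays and 3 both below, against 21.4% and 24.2% of all probe sets. None of these markers passed the threshold used below. Differences between replicates of the 56 genes had an SD of 0.144 within ORM and 0.259 within control (log2). The wider spread of the control arrays was general, with 0.248 for ORM and 0.404 for control over the whole array.

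The spliceosome removes introns from pre-mRNA. It is built from small nuclear ribonucleoprotein particles (snRNPs), each a short RNA with its proteins. A ring of Sm proteins, encoded by SNRP genes, encircles the RNA of U1, U2, U4 and U5, while a ring of LSm proteins holds U6. U1 recognizes the start of an intron, and U2, with SF3A and SF3B, the branch point. The tri-snRNP of U4, U6 and U5, which holds many PRPF proteins, then joins and is rearranged for catalysis. SR proteins (SRSF genes) bind exons and guide the snRNPs to splice sites. SF3B1 is recurrently mutated in blood cancers, and T cells change the splicing of many genes when they are activated.

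To find out whether 1 round of confined migration altered the levels of this machinery, the 2 ORM arrays were compared with the 2 control arrays. The threshold was that of the study, more than a 1.8-fold difference together with p below 0.05 unadjusted (limma). SNRPE, which encodes the Sm protein E, rose in ORM cells and was the only one of the 56 genes past this threshold. Over all probe sets 0.704% passed. No gene of the 56 had a Benjamini-Hochberg adjusted p under 0.05 from limma (lowest 0.428), nor did any other probe set, while 7 of the 56 had an unadjusted p under 0.05, against 11.4% of all probe sets. With 4 arrays, the smallest two-sided p of an exact permutation test is 0.333. Arrays of bulk RNA do not tell fewer cells that express a gene from less RNA in each cell, and their number limits the precision. The 95% interval of the log2 fold change, ORM minus control, reached 0.37 to 0.67 to each side. For 49 of the 56 genes it lay wholly within a 1.8-fold change in either direction, and it reached past that for SNRPE, LSM5, LSM11, PRPF4, PRPF40B, SRSF6 and LSMEM2.

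SNRPE had log2 signals of 10.12 and 10.09 in the ORM arrays, against 9.30 and 9.08 in the control arrays. Both ORM arrays lay above both control arrays, and the gap between the groups, 0.79, was wider than the distance between the control arrays, 0.22. It averaged 10.11 ± 0.02 in ORM cells and 9.19 ± 0.16 in control cells (SD, n = 2 each). The log2 fold change was 0.92 (standard error 0.17, unadjusted p = 0.00119 and adjusted p = 0.428 from limma), a 1.89-fold rise. Both the loss of control replicate 2 and quantile normalization left SNRPE just under the fold limit, at log2 fold changes of 0.81 and 0.82 (unadjusted p = 0.00587 and 0.00208 from limma). RefSeq names 11 pseudogenes after SNRPE, and signal from near-identical copies was not separated.

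Short stretches from the promoter regions of SNRPE, LSM5, SF3A2 and SF3B6 are shown. Among genes with a given run of letters near a transcript start, these had the largest differences in each direction. They share the run because they were chosen for it. SNRPE and LSM5 had the largest log2 fold changes above 0, and SF3A2 and SF3B6 were among those furthest below 0. LSMEM2 and PRPF40B lay further below 0, but their promoter regions do not hold the letters. The letters CCGGAAG, a core that ETS transcription factors recognize, are in capitals, and where the match lies on the other strand it is printed as CTTCCGG. Sequences are from RefSeq (GRCh38.p14), on the strand of the gene:

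SNRPE, chr1:203861597-203861623, + strand: ttctttattCCGGAAGttgctctcaga

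LSM5, chr7:32490362-32490390, - strand: aaggcaggccaCTTCCGGcgtagccatgg

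SF3A2, chr19:2236804-2236832, + strand: tctcatttgccCCGGAAGtgctttctttg

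SF3B6, chr2:24076328-24076356, - strand: cgctgtaacagCTTCCGGcgggtcctgga

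In SNRPE the letters begin at base 8 of the RefSeq gene record, upstream of the listed start. In LSM5 they begin at base 2 of a listed start that lies inside the gene, at base 4905 of its record, and another copy lies 227 bases before the upstream start. They begin in SF3A2 and SF3B6 at base 9 and base 19 before the start. SF3B6 holds further copies that are not shown. The table of promoter windows, each from 250 bases before a start to 50 after it, held 60 windows for 48 of the 56 genes. CCGGAAG was present on either strand in 22 of the 60 windows (36.7%), against 10.3% of all 35116 windows and 20.0% of the 4780 windows of genes whose signal averaged at least 8 (log2). Windows of the same gene can overlap. By gene, it was present for 8 of 21 genes whose ORM arrays both lay above both control arrays, 2 of 9 whose ORM arrays both lay below, and 9 of 18 whose groups overlapped. The palindrome CACGTG, the E-box bound by MYC and related factors, was found in 3 of the 60 windows (5.0%), in 7.26% of all windows and in 10.4% of those of bright genes. TATAAA, sought on both strands, was found in 5 (8.33%), in 11.5% of all windows and in 6.42% of those of bright genes. A match is a run of letters and not a measured binding site.

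**Figure D1:**
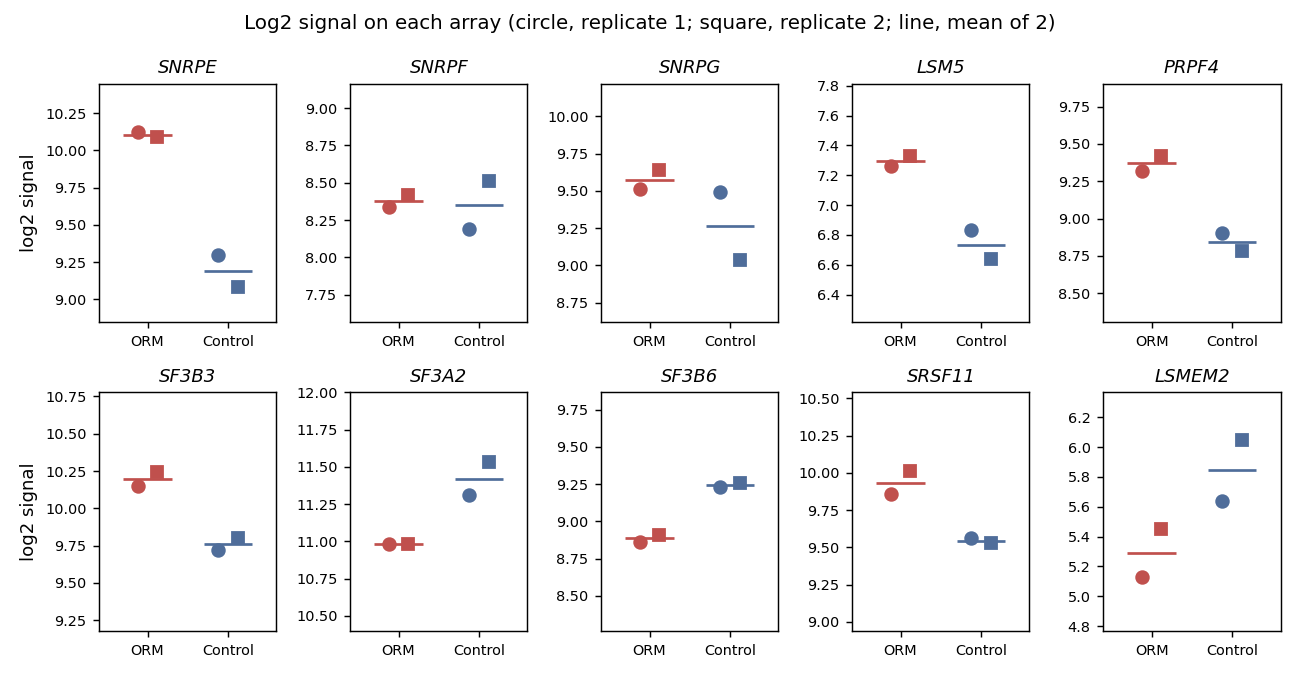
Log2 signal on each array for 10 genes, with ORM left and Control right in each panel, circles for replicate 1, squares for replicate 2 and a line at the mean of 2 arrays. Each panel spans 1.6 log2 units, and SNRPE shows the widest gap between the groups (0.79), with its Sm partners SNRPF and SNRPG beside it.

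The other genes of the Sm ring did not pass the threshold, and none was tested against SNRPE. The proteins E, F and G bind each other before the ring closes. SNRPF had 8.34 and 8.42 in the ORM arrays, against 8.19 and 8.51 in the control arrays, so the groups overlapped (log2 fold change 0.03, standard error 0.18). SNRPG had 9.51 and 9.64 in the ORM arrays, against 9.49 and 9.04 in the control arrays. Its ORM arrays lay above both control arrays, by only 0.02 over control replicate 1 (log2 fold change 0.31, standard error 0.20, unadjusted p = 0.173 from limma). SNRPD1 had 8.68 and 8.75 in the ORM arrays, against 8.53 and 8.28 in the control arrays, and its log2 fold change was also 0.31 (standard error 0.17, unadjusted p = 0.116 from limma). It stood at 0.19 against control replicate 1 alone and at 0.44 against control replicate 2 alone. SNRPB, the lowest of the ring, had 8.33 and 8.50 in the ORM arrays, against 8.52 and 8.42 in the control arrays (log2 fold change -0.06, standard error 0.16, unadjusted p = 0.749 from limma). Its groups overlapped, as did those of SNRPD2 and SNRPD3, whose log2 fold changes lay between -0.01 and 0. Of the 7 Sm genes, 1 passed the threshold, upward, and 6 did not. The median log2 fold change was 0.03, and it was -0.05 with quantile normalization. The 95% interval of SNRPF ran from -0.40 to 0.46, and that of SNRPE from 0.51 to 1.32. The difference between both genes was not tested. SNRPB is nearly identical in sequence to SNRPN, and RefSeq names 20 pseudogenes after SNRPG.

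The genes of proteins particular to U1 and U2 lay on both sides of 0, with log2 fold changes from -0.23 to 0.20. SNRPA, the U1 protein A, had 9.86 and 10.01 in the ORM arrays, against 10.09 and 10.23 in the control arrays. Its ORM arrays both lay below the control arrays (log2 fold change -0.23, standard error 0.17, unadjusted p = 0.219 from limma). SNRPA1, the U2 protein A', had 9.66 and 9.65 in ORM arrays, against 9.28 and 9.63 in control arrays (log2 fold change 0.20, standard error 0.18, unadjusted p = 0.313 from limma). Its ORM arrays lay above both control arrays, but above control replicate 2 by only 0.02. SNRPB2, the U2 protein B'', and SNRPC, the U1 protein C, had overlapping groups (log2 fold changes 0.11 and -0.07). None of the 4 passed, and their median was 0.02.

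In the LSm ring of U6, LSM5 alone had an unadjusted p under 0.05. LSM5 had log2 signals of 7.26 and 7.33 in the ORM arrays, against 6.83 and 6.64 in the control arrays. The ORM arrays lay 0.43 above the control arrays, and the log2 fold change was 0.56 (standard error 0.17, unadjusted p = 0.0129 and adjusted p = 0.428 from limma), a 1.47-fold difference below the fold limit. LSM4 had 9.47 and 9.44 in the ORM arrays, against 9.52 and 9.74 in the control arrays, with both ORM arrays lower (log2 fold change -0.18, standard error 0.17, unadjusted p = 0.332 from limma). With 1 array left out this ran from -0.29 to -0.07. LSM3, LSM6, LSM7 and LSM8 had log2 fold changes of -0.14 to 0.07 and overlapping groups. Against control replicate 1 alone LSM3, LSM6 and LSM7 stood at 0.07 to 0.23, and against control replicate 2 alone at -0.36 to -0.11, because control replicate 2 was 0.33 to 0.44 above control replicate 1 in each. None of the 6 genes passed, and the median was -0.02.

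LSm proteins outside that ring showed no shared direction. LSM11, a part of the U7 snRNP that cuts histone pre-mRNA, had 7.04 and 7.34 in the ORM arrays, against 6.92 and 6.61 in the control arrays (log2 fold change 0.43, standard error 0.20, unadjusted p = 0.0697 from limma). With 1 array left out it ran from 0.27 to 0.58. Its partner in that snRNP, LSM10, had 7.52 and 7.47 in the ORM arrays, against 7.81 and 7.46 in the control arrays (log2 fold change -0.14). LSM14A, which acts in the storage and repression of mRNA, had 8.07 and 7.87 in the ORM arrays, against 7.66 and 7.65 in the control arrays. Both ORM arrays of LSM14A lay above (log2 fold change 0.32, standard error 0.16, unadjusted p = 0.101 from limma), while those of its paralog LSM14B lay below, at 8.72 and 8.64 in ORM arrays against 8.77 and 8.91 in control arrays (log2 fold change -0.16, standard error 0.16, unadjusted p = 0.357 from limma). LSM1, of the cytoplasmic ring that promotes decapping, was at 0.12, and LSM12 at -0.03. None of these 6 genes passed, and their median was 0.05.

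The subunits of SF3A and SF3B, which hold U2 at the branch point, lay on both sides of 0. SF3B3, a large scaffold subunit, had log2 signals of 10.15 and 10.24 in the ORM arrays, against 9.72 and 9.80 in the control arrays. The ORM arrays lay 0.35 above (log2 fold change 0.44, standard error 0.16, unadjusted p = 0.0311 from limma). SF3A2 had 10.98 on both ORM arrays, against 11.31 and 11.53 in the control arrays. Its ORM arrays lay 0.33 below (log2 fold change -0.44, standard error 0.17, unadjusted p = 0.0358 from limma). The small subunit genes SF3B5 and SF3B6 also had both ORM arrays below both control arrays. SF3B6, whose protein contacts the branch point region, had 8.86 and 8.91 in ORM arrays, against 9.23 and 9.26 in control arrays, a log2 fold change of -0.36 (standard error 0.16, unadjusted p = 0.0572 from limma). SF3B5 had 7.83 and 7.92 in ORM arrays, against 8.17 and 8.22 in control arrays (log2 fold change -0.32). On the other side, SF3A3 had 10.24 and 10.20 in ORM arrays, against 9.92 and 9.82 in control arrays (log2 fold change 0.35). SF3B4 was at 0.32, with 0.13 against control replicate 1 alone and 0.52 against control replicate 2 alone. SF3B1 had 9.21 and 9.19 in ORM arrays, against 8.98 and 9.08 in control arrays, with a log2 fold change of 0.17. SF3A1 and SF3B2 had overlapping groups. In all, 4 of 9 subunits had both ORM arrays above (21.4% of all probe sets, and 43.9% of bright ones, those with a mean log2 signal of 8 or more) and 3 had both below (24.2% and 17.3%). None passed the threshold, and the median was 0.06 (-0.05 with quantile normalization). SF3A2 and SF3A3 belong to the same trimer, with 95% intervals of -0.84 to -0.04 and -0.03 to 0.73. Their difference was not tested.

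**Figure D2:**
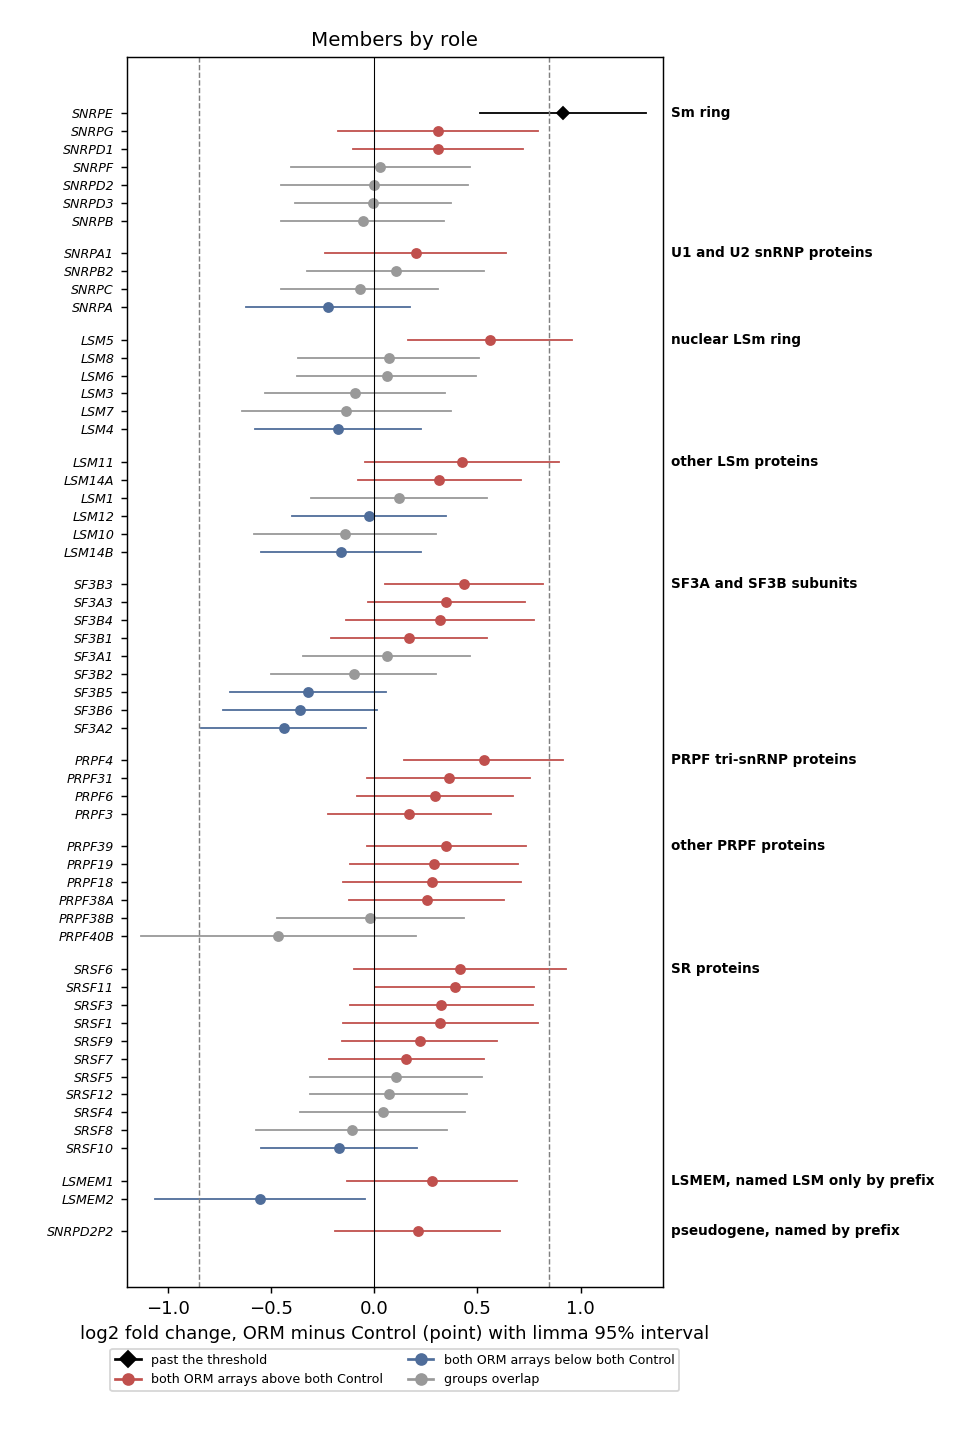
Log2 fold change, ORM minus Control, of all 56 genes by role (point) with the 95% interval of limma (line), and dashed lines at a 1.8-fold change. SNRPE (0.92) is the only point beyond a dashed line, the 4 PRPF genes of the tri-snRNP all lie right of 0, and the SF3A and SF3B genes run from -0.44 to 0.44.

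The 4 PRPF genes of the tri-snRNP all had both ORM arrays above both control arrays, as had 21.4% of all probe sets and 43.9% of bright ones, and none passed the threshold. PRPF4, which binds U4 and U6, had log2 signals of 9.32 and 9.42 in the ORM arrays, against 8.90 and 8.78 in the control arrays. The ORM arrays lay 0.42 above (log2 fold change 0.53, standard error 0.16, unadjusted p = 0.0148 and adjusted p = 0.428 from limma). PRPF31, mutated in an inherited retinal degeneration, had 9.36 and 9.28 in the ORM arrays, against 9.05 and 8.87 in the control arrays (log2 fold change 0.36, standard error 0.16, unadjusted p = 0.0678 from limma). PRPF6, a bridge between U5 and the U4/U6 particle, had 8.22 and 8.33 in ORM arrays, against 7.97 and 7.99 in control arrays (log2 fold change 0.30). PRPF3, the partner of PRPF4, had 9.67 and 9.83 in ORM arrays, against 9.52 and 9.64 in control arrays. Its groups were only 0.03 apart (log2 fold change 0.17, standard error 0.16, unadjusted p = 0.339 from limma), and with 1 array left out the value ran from 0.09 to 0.25. The median of the 4 genes was 0.33, and it lay between 0.24 and 0.38 under other scalings and with each array left out.

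The remaining PRPF genes act at several steps. PRPF39, a U1-associated protein, had 6.47 and 6.62 in ORM arrays, against 6.17 and 6.22 in control arrays (log2 fold change 0.35, standard error 0.16, unadjusted p = 0.0695 from limma). PRPF19, the ubiquitin ligase that gives the PRP19 complex its name, had 9.83 and 10.08 in ORM arrays, against 9.67 and 9.66 in control arrays (log2 fold change 0.29, standard error 0.17, unadjusted p = 0.135 from limma). With 1 array left out it ran from 0.17 to 0.42. PRPF18, a factor of the second catalytic step, and PRPF38A, a protein of the precatalytic complex, were at 0.28 and 0.26. In these 4 genes both ORM arrays lay above both control arrays, as in 21.4% of all probe sets and 43.9% of bright ones. PRPF40B, another U1-associated protein, had 5.62 and 5.39 in the ORM arrays, against 5.57 and 6.37 in the control arrays. Its value of -0.47 (standard error 0.28, unadjusted p = 0.142 from limma) rested on control replicate 2. Against control replicate 1 alone it was -0.07, whereas with control replicate 1 left out it was -0.87. PRPF38B had overlapping groups (log2 fold change -0.02). None of the 6 genes passed with all arrays, and the median was 0.27 (0.17 with quantile normalization).

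Of the SR protein genes, 9 of 11 had a log2 fold change above 0, as had 44.4% of all probe sets and 64.5% of bright ones, and none passed the threshold. SRSF11 had log2 signals of 9.86 and 10.01 in the ORM arrays, against 9.56 and 9.53 in the control arrays. The ORM arrays lay 0.30 above (log2 fold change 0.39, standard error 0.16, unadjusted p = 0.0484 from limma). SRSF6 had 9.99 and 9.83 in the ORM arrays, against 9.75 and 9.24 in the control arrays (log2 fold change 0.42, standard error 0.21, unadjusted p = 0.0976 from limma). The low value of control replicate 2 made up most of it, since against control replicate 1 alone the difference was 0.16. SRSF1, a splicing factor that can act as an oncogene, had 11.36 and 11.43 in ORM arrays, against 11.29 and 10.86 in control arrays (log2 fold change 0.32). SRSF3, which also serves in mRNA export, had 10.03 and 10.11 in ORM arrays, against 9.92 and 9.57 in control arrays (log2 fold change 0.33). In SRSF1 and SRSF3, as in SRSF6, control replicate 2 was the lowest array, and against control replicate 1 alone the differences were 0.11 and 0.15. SRSF7 and SRSF9 had both ORM arrays above at 0.16 and 0.22, and SRSF4, SRSF5 and SRSF12 overlapped. SRSF10, which becomes a repressor of splicing when dephosphorylated in heat shock, had 10.02 and 10.10 in ORM arrays, against 10.24 and 10.22 in control arrays. Both its ORM arrays lay below (log2 fold change -0.17, standard error 0.16, unadjusted p = 0.317 from limma). SRSF8, which arose as a retrocopy of SRSF2, was at -0.11 with overlapping groups. The median of the 11 genes was 0.16.

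**Figure D3:**
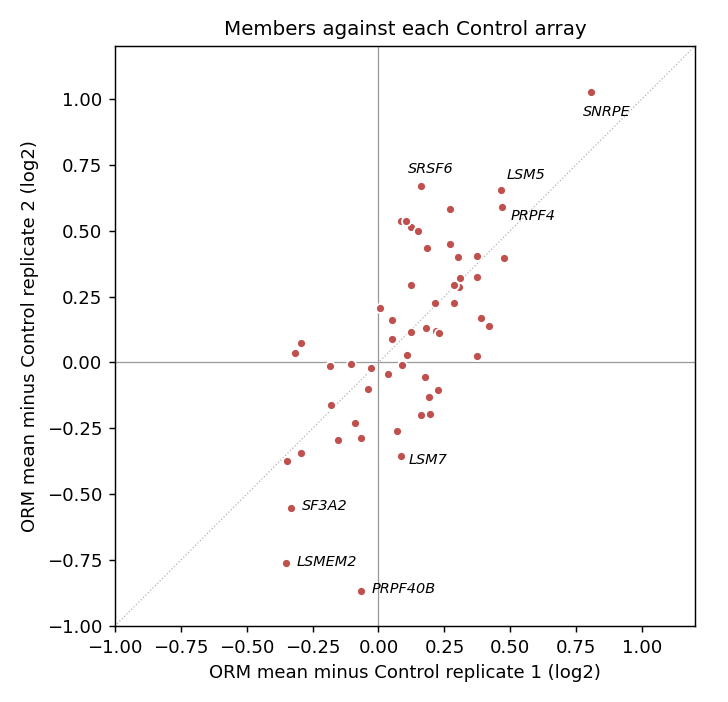
Each of the 56 genes as the ORM mean minus Control replicate 1 (horizontal axis, log2) and minus Control replicate 2 (vertical axis, log2), with a dotted line where both are equal. SNRPE is far from 0 on both axes (0.81 and 1.03), whereas PRPF40B (-0.07 and -0.87) and SRSF6 (0.16 and 0.67) depart mainly from Control replicate 2.

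The 3 genes that matched by prefix only included LSMEM2, a membrane protein gene, with 5.13 and 5.45 in the ORM arrays, against 5.64 and 6.05 in the control arrays (log2 fold change -0.56, standard error 0.21, unadjusted p = 0.0368 from limma). LSMEM1 and SNRPD2P2 lay below the lower quartile of every array (4.14 to 4.26), so their log2 fold changes of 0.28 and 0.21 come from dim signals.

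Over the 56 genes, 27 had both ORM arrays above both control arrays, 9 had both below, and 20 overlapped. Among all probe sets 21.4% lay above and 24.2% below, so that the groups did not overlap for 45.6%, against 36 of the 56 genes. The log2 fold change was above 0 for 36 genes and below 0 for 19, against 44.4% and 54.9% of all probe sets. The median log2 fold change of the 56 genes was 0.11, against -0.04 over all probe sets. Most of the 56 genes gave strong signals, however, and bright probe sets as a whole had higher values in ORM cells. Of the 56 genes, 39 had a mean log2 signal of at least 8, as had 4417 probe sets of the array, for which this limit was chosen after the data were seen. Of the 39 genes, 20 (51.3%) had both ORM arrays above and 8 (20.5%) both below, with a median of 0.16. Of the 4417 probe sets, 43.9% had both ORM arrays above and 17.3% both below, with a median of 0.11, and 0.385% passed the threshold. The log2 fold change was above 0 for 25 of the 39 genes (64.1%), against 64.5% of the bright probe sets. An unadjusted p under 0.05 was found upward for 4 of the 39 genes (10.3%) against 10.9% of the bright probe sets, and downward for 1 (2.56%) against 2.67%. The shares of the spliceosome genes were thus near those of other bright probe sets. The number of the 56 genes with an unadjusted p under 0.05 was 5 upward and 2 downward, against 5.91% and 5.5% of all probe sets. It was 5 and 0 without control replicate 2, when 5.33% and 5.98% of all probe sets had such a p. Without control replicate 1 it was 12 and 4, when 11.7% and 13% had one, and it was 1 and 0 without ORM replicate 1 (1.63% and 1.42%) and without ORM replicate 2 (0.788% and 0.877%).

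**Figure D4:**
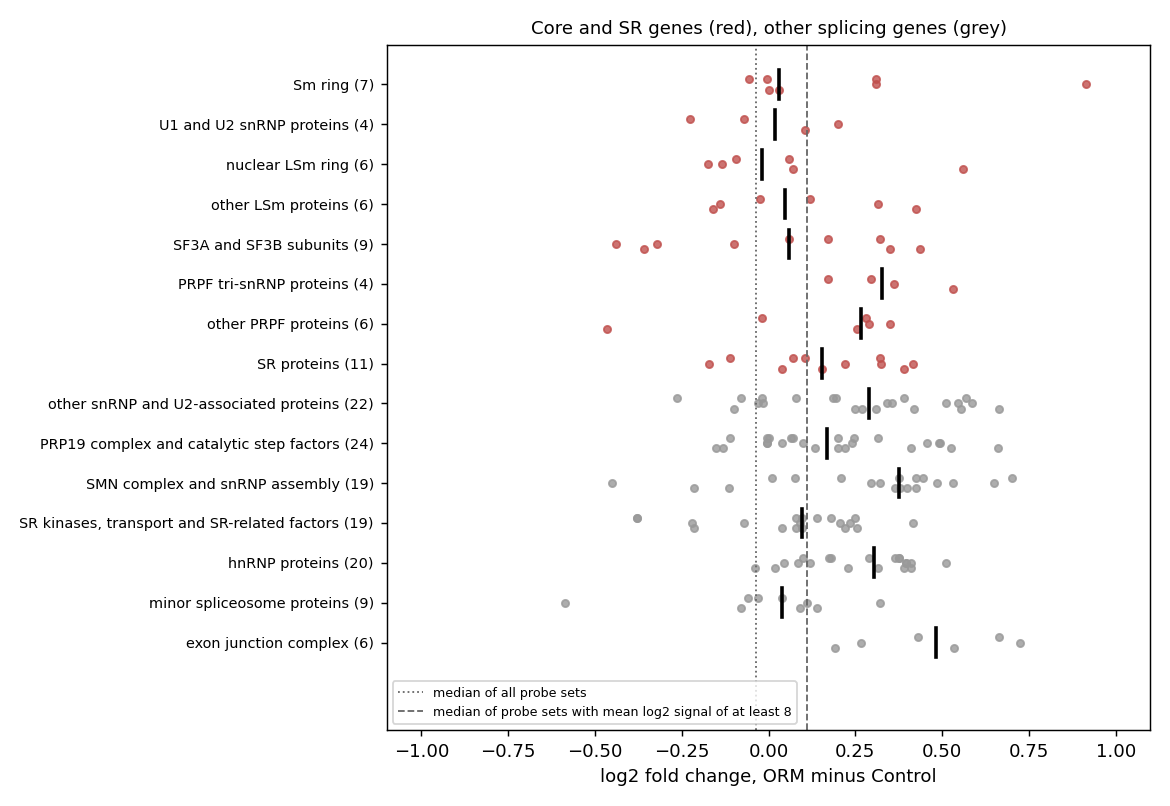
Log2 fold change, ORM minus Control, of single genes (points) with the median of each list (black bar) for the role groups of 53 of the 56 genes (red) and for lists of other splicing genes (grey), with the number of measured genes in brackets. The dotted and dashed lines mark the medians of all probe sets (-0.04) and of bright probe sets, those averaging at least 8 (0.11), and the highest list medians are those of the exon junction complex (0.48), the SMN complex list (0.38) and the PRPF genes of the tri-snRNP (0.33).

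Other genes of the splicing pathway were described from lists of 139 genes, of which 119 were measured. None passed the threshold. Both ORM arrays lay above both control arrays for 69 (58%), against 21.4% of all probe sets and 43.9% of bright ones, and both lay below for 7 (5.88%), against 24.2% and 17.3%. An unadjusted p under 0.05 was found upward for 22 (18.5%), against 5.91% and 10.9%, and downward for 1 (0.84%), against 5.5% and 2.67%. The shares of all probe sets and of bright ones are the background for each list that follows. Their median log2 fold change was 0.21. Among 19 genes of the SMN complex and of snRNP assembly, which load the Sm ring onto snRNA, 15 had both ORM arrays above and 2 both below. Their median was 0.38, with 0.27 against control replicate 1 alone and 0.42 against control replicate 2 alone. WDR77, the partner of the methyltransferase PRMT5 that modifies Sm proteins, had the smallest upward p there (log2 fold change 0.70, standard error 0.18, unadjusted p = 0.0078 from limma). GEMIN7 lay on the other side of 0, at -0.45 (standard error 0.20, unadjusted p = 0.0636 from limma). Of 22 further snRNP and U2-associated proteins 12 had both ORM arrays above and 1 both below. Their median was 0.29, with 0.18 against control replicate 1 alone and 0.42 against control replicate 2 alone. EFTUD2, the GTPase of U5, was at 0.59 (standard error 0.16), and SNRNP70, the U1 protein that binds its RNA, at -0.27 (standard error 0.16).

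As background, both ORM arrays lay above for 21.4% of all probe sets and 43.9% of bright ones. Both lay below for 24.2% and 17.3%. Of 24 proteins of the PRP19 complex and the catalytic steps, 11 had both ORM arrays above and none below. Their median was 0.17, with CWC25 at 0.66 (standard error 0.17) and YJU2 at -0.15 (standard error 0.17). Of 20 hnRNP genes, whose proteins package nascent RNA and often oppose SR proteins, 15 had both ORM arrays above and 1 below. The median was 0.30, with 0.19 against control replicate 1 alone and 0.40 against control replicate 2 alone. Single values included HNRNPM at 0.51 (standard error 0.16) and PCBP1 at -0.04 (standard error 0.16). All 6 measured genes of the exon junction complex and its decay partners had both ORM arrays above, with a median of 0.48. The helicase gene UPF1, of nonsense-mediated decay, was at 0.73 (standard error 0.17, unadjusted p = 0.0038 from limma). The 19 SR kinases, transport and SR-related factors had a median of 0.10, with 9 above and 2 below. TNPO3, the import receptor of SR proteins, was at 0.42 (standard error 0.16), and CLK3, a kinase that phosphorylates them, at -0.38 (standard error 0.22). CLK3 stood at -0.10 against control replicate 1 alone and at -0.67 against control replicate 2 alone. The 9 genes of the minor spliceosome had a median of 0.04, and in 7 the groups overlapped. ZMAT5 was at -0.59 (standard error 0.21, unadjusted p = 0.0287 from limma) and SNRNP25 at 0.32 (standard error 0.18).

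**Figure D5:**
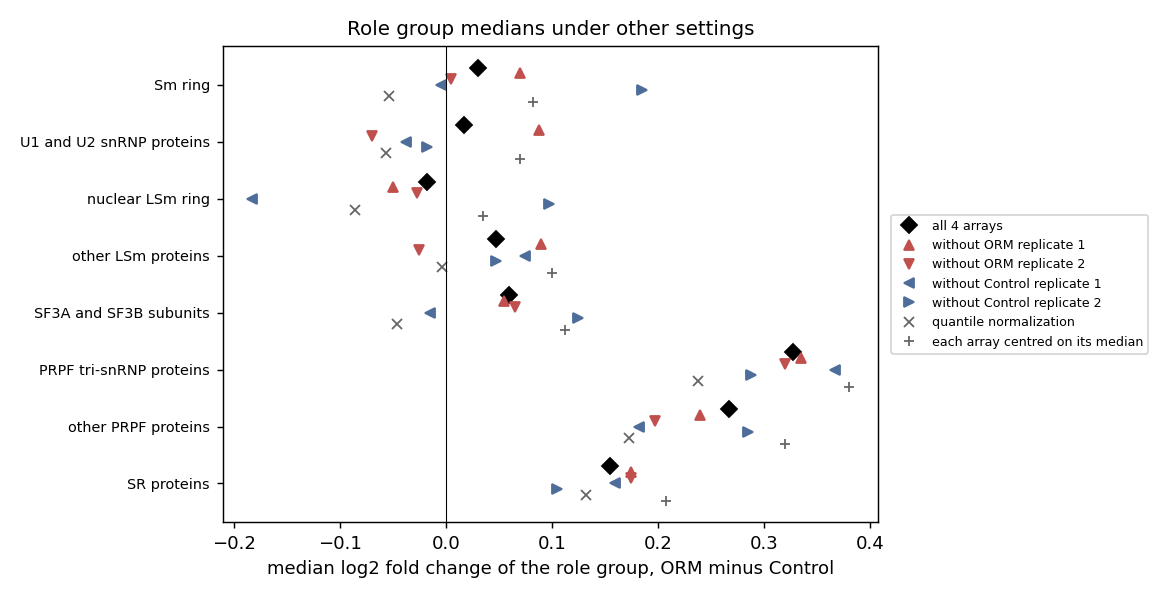
Median log2 fold change, ORM minus Control, of each role group with all 4 arrays (diamond), with each array left out (triangles), with quantile normalization (x) and with each array centred on its median (+). The medians of the PRPF and SR groups stay above 0 under the settings drawn, whereas those of the Sm, LSm, U1 and U2, and SF3A and SF3B groups lie on both sides of 0.

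The order of the role groups by median, from the PRPF genes of the tri-snRNP (0.33) and the other PRPF genes (0.27) through the SR genes (0.16) to the nuclear LSm ring (-0.02), rested on few genes each and was not tested. Without 1 array at a time, the median of the Sm genes ran from -0.01 to 0.19 and that of the nuclear LSm ring from -0.18 to 0.10. The median of the other PRPF genes ran from 0.18 to 0.29 and that of the SR genes from 0.11 to 0.18.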

How the data were processed

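The authors deposited normalized log2 signals, 1 value a probe set. RMA and Transcriptome Analysis Console stand in the processing notes of the submitters. Their versions, background setting and genome build were not given in the sources used here. RNA was extracted with TRI reagent by the labels, but with a column kit by the paper's supplement. Scanner files were not used here, so background correction and summarization were taken as deposited.

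ORM (2 arrays) was compared with control (2 arrays) for all 21448 probe sets by limma 3.58.1 (lmFit, then eBayes with its defaults) in R 4.3.3, with no filter on dim probe sets, and Benjamini-Hochberg adjustment ran over all of them. The platform's annotation gave 1 symbol for 17709 probe sets and listed none for 3739, and 0 of the 56 symbols changed against RefSeq. The fit and a t test were tested on simulated arrays.

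Each gene of the 56 may be named. Full statistics were given for genes past the threshold and, in each role group, for the 2 with the smallest p and the 1 with the lowest log2 fold change. From each list of other splicing genes the gene with the smallest p in each direction was named, and further values were given where a comparison turned on them. The genes and lists were chosen with earlier results of these data known. The replicate numbers were not used to pair the arrays in the main comparison. The differences between replicates 2 and 1 in both groups correlated at 0.09 over all probe sets. That value cannot show whether arrays of the same number were handled together. The arrays were also analysed with other scalings, filters, tests and thresholds and with each array left out. The p-values of limma set the difference between the groups against the spread within them, which limma moderates with that of all probe sets. Only these 4 arrays enter that spread.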

Additional observations from a re-analysis of the deposited data

How the results depend on the processing

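Of the 56 genes, 1 passed the threshold (SNRPE), and this number was 0 with quantile normalization, 0 at a fold change over 2, 0 at an adjusted p under 0.05 and 7 at an unadjusted p under 0.05 with no fold limit. With 1 array left out, 1 group holds a single array, so genes past the threshold are not counted for those fits. The log2 fold change of SNRPE then ran from 0.81 to 1.03. It was just under the fold limit without control replicate 2. That of PRPF40B ran from -0.87 to -0.07. The number past the threshold was 1 with median centring, both filters on dim probe sets and the methods' t-test. It was also 1 for limma with trend and robust settings, a limit of 1.5-fold, and p below 0.01. No probe set had an adjusted p under 0.05 under any setting (lowest adjusted p from limma 0.166 to 0.996, and 0.434 by the methods' t-test). Genes with an unadjusted p under 0.05 upward numbered 5, but 9 with median centring (8.36% of all probe sets), 11 by the methods' t-test (4.46%), 8 with trend and robust settings (7.79%) and 1 to 12 with 1 array left out. Downward they numbered 2, but 0 with median centring (3.5%) and 3 with quantile normalization (4.59%). They also numbered 3 with trend and robust settings (5.39%) and with each filter on dim probe sets (5.71% and 5.66% of those kept).

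The median log2 fold change of the 56 genes was 0.11, 0.067 with quantile normalization, 0.17 with median centring and 0.11 to 0.17 with 1 array left out (0.11 also without LSMEM1, LSMEM2 and SNRPD2P2). With quantile normalization the medians were -0.054 for the Sm ring, -0.0038 for other LSm proteins, -0.046 for SF3A and SF3B, 0.24 for PRPF genes of the tri-snRNP and 0.17 for other PRPF genes. With median centring they were 0.083, 0.10, 0.11 and 0.38 for the first 4 of these. With 1 array left out the ranges were -0.005 to 0.19, -0.025 to 0.09, -0.015 to 0.13 and 0.29 to 0.37 for these 4, and 0.18 to 0.29 for other PRPF genes. The genes with both ORM arrays above numbered 29 to 33 with 1 array left out, against 30.1% to 37.9% of all probe sets. Those with both below numbered 11 to 19, against 34.7% to 42.9%. A lone array overlaps less easily. Quantile normalization gave 23 above and 13 below (22.2% and 21.6% of all probe sets). Median centring gave 29 and 6 (26.9% and 18.5%). SNRPB changed sign without ORM replicate 1, with a range of -0.14 to 0.03. Each gene had 1 probe set, so averaging probe sets changed nothing. With the replicate block, fitted although the labels do not say whether the numbers pair the arrays, 1 gene passed, as did 162 of all probe sets. With that block 4 genes upward (5.14% of all probe sets) and 2 downward (5.3%) had an unadjusted p under 0.05. The causes of these shifts were not tested.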
